A study of Rattus norvegicus with 24 samples.

Results

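Slc17a6, Zic1, Tcf7l2, Lef1 and Prkcd are 5 genes with strong expression in the thalamus or the septum, regions that lie close to the dorsal striatum. They were followed here on 24 arrays of striatal RNA, chosen by name, as 5 of 20962 genes that passed the filter on dim probes. The array carries 10 probes for them among 45598, and 7 of the 10 passed the filter. The study took the left dorsal striatum of male Long Evans rats aged 80 to 90 days, all given 1 intraperitoneal injection on each of 5 days. Rats of the saline group received no drug, those of the acute group 4 saline injections and then 1 of MDPV, and those of the chronic group MDPV each day, at 1 mg/kg per injection. MDPV (methylenedioxypyrovalerone) is a stimulant of the cathinone class that inhibits the dopamine and noradrenaline transporters. All brains were collected 24 h later, so all groups shared the handling and the injections. Total RNA was labelled with Cy3 and hybridised to 8 arrays per group on 3 slides. The series design gives 6 per group, and arrays that share a title letter were therefore averaged to 18 units, 6 per group. Whether arrays of a shared letter came from 1 rat is not stated, so p-values measure the spread between these units, which may in part be technical.

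Relay neurons of the thalamus release glutamate that is loaded into vesicles by VGLUT2, the protein of Slc17a6, while cortical neurons mostly use the related transporter encoded by Slc17a7. Adult thalamic neurons keep Tcf7l2 and Lef1, DNA-binding partners of beta-catenin in the Wnt pathway, and many relay neurons hold Prkcd, the delta form of protein kinase C. Zic1 is a zinc finger transcription factor of the septum and other midline tissue. Striatal projection neurons release GABA and hold Ppp1r1b, which encodes DARPP-32, a phosphatase inhibitor under dopamine control. None of the 5 genes belongs to 1 cell type alone: Tcf7l2 also marks newly formed oligodendrocytes, Lef1 is found in endothelium, and Slc17a6 is also used by hypothalamic neurons. The arrays measured bulk tissue, in which a lower number of cells of a type and less RNA per cell cannot be told apart.

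The probes behind the values are shown because the probes of 1 gene did not all give a signal. Each probe is 60 bases long, and its last 30 bases are given 5′ to 3′ as the scanner files list them, with the polyadenylation signals AATAAA and ATTAAA in capitals. Positions are those of the files' rat build rn4, and neither exons nor untranslated regions of that build were assigned here. The first 5 are the probes used for the genes, and the last 2 are other probes of Tcf7l2.
Slc17a6, chr1:101465828-101465887, plus strand: tttgtttctaaatgcaaaccactcctgacc
Zic1, chr8:96313658-96313717, minus strand: tggtaacctttcgtacgttATTAAAgattc
Tcf7l2, chr1:262226651-262226710, plus strand: ttAATAAAagcaacttagtatgtgcagaaa
Lef1, chr2:228690210-228690269, plus strand: tattagccgattagtgggagtttatgccag
Prkcd, chr16:5954516-5954575, minus strand: tcggagggaaactgtaaatcctgtgtgtca
Tcf7l2, upstream, chr1:262044815-262044874, plus strand: aaaacgattgaacaccagattgcaattcag
Tcf7l2, upstream, chr1:262047317-262047376, plus strand: ccgggtatcacatgaggttcattccctcct

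On the probe strand, the used probes of Zic1 and Tcf7l2 hold ATTAAA and AATAAA, as do 12.6% of all probes for at least 1 of these motifs. Such a match is a description of the letters and not a mapped cleavage site. The used probe of Tcf7l2 was well above background on 24 of 24 arrays. Its upstream probes, 179 and 182 kb away on the genome, were well above background on 0 of 24. In Zic1, Lef1 and Prkcd, too, the used probe is the most downstream of the gene's probes, at 1.04 kb, 21.5 kb and 6.46 kb from the other one. The other Zic1 probe was above background on 10 arrays and the other Prkcd probe on 8, whereas the other Lef1 probe was above it on 22. These other probes are taken up again after the values.

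Each level is the log2 of the scanner's processed signal after the 75th percentile of its array was subtracted, so that 0 stands for that percentile, and a level of 1 probe is not set against that of another probe. Slc17a6 was the most variable of the 5 genes. Its level ran from -3.78 through a median of -2.27 to 0.30 on the 8 saline arrays. On the acute arrays its lowest, median and highest levels were -3.49, -2.72 and -1.89, and on the chronic arrays -3.78, -2.68 and -1.91. The groups overlapped, and the saline arrays alone reached above the other groups, with replicate 4 at 0.30 and replicate 5 at -0.95. Over 24 arrays the range of Slc17a6 was 17.0-fold, and over the 22 arrays without those 2 it was 3.71-fold.

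Of the transcription factors, Zic1 ranged from -2.93 through a median of -2.44 to -0.28 on saline arrays. Its lowest, median and highest levels were -3.40, -2.51 and -1.33 in the acute group. In the chronic group they were -3.40, -2.97 and -2.14. Tcf7l2 took the values -2.95, -2.54 and -0.77 on saline arrays, -2.86, -2.48 and -1.65 on acute arrays and -3.26, -2.55 and -2.19 on chronic arrays. For both genes the groups overlapped, the saline range was the widest and the top of the chronic range was the lowest. The whole ranges were 8.69-fold for Zic1 and 5.61-fold for Tcf7l2, and 4.20-fold and 3.06-fold over the 22 arrays.

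Lef1 stood apart from the other transcription factors in its narrow range. On the saline arrays its lowest, median and highest levels were -4.08, -3.23 and -2.77, with the low end set by replicate 3, where it was not well above background. They were -3.54, -3.24 and -3.02 on acute arrays and -3.58, -3.45 and -3.22 on chronic arrays. Its range over 24 arrays was 2.49-fold, and 2.31-fold over the 22. Prkcd, the kinase, went from -0.91 through -0.56 to 1.04 on saline arrays. The matching levels were -1.28, -0.85 and -0.53 on acute arrays and -1.33, -0.77 and -0.44 on chronic arrays. Over 24 arrays Prkcd spanned 5.18-fold, but over the 22 arrays only 1.85-fold, the narrowest range of the 5 genes there.

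**Figure D1:**
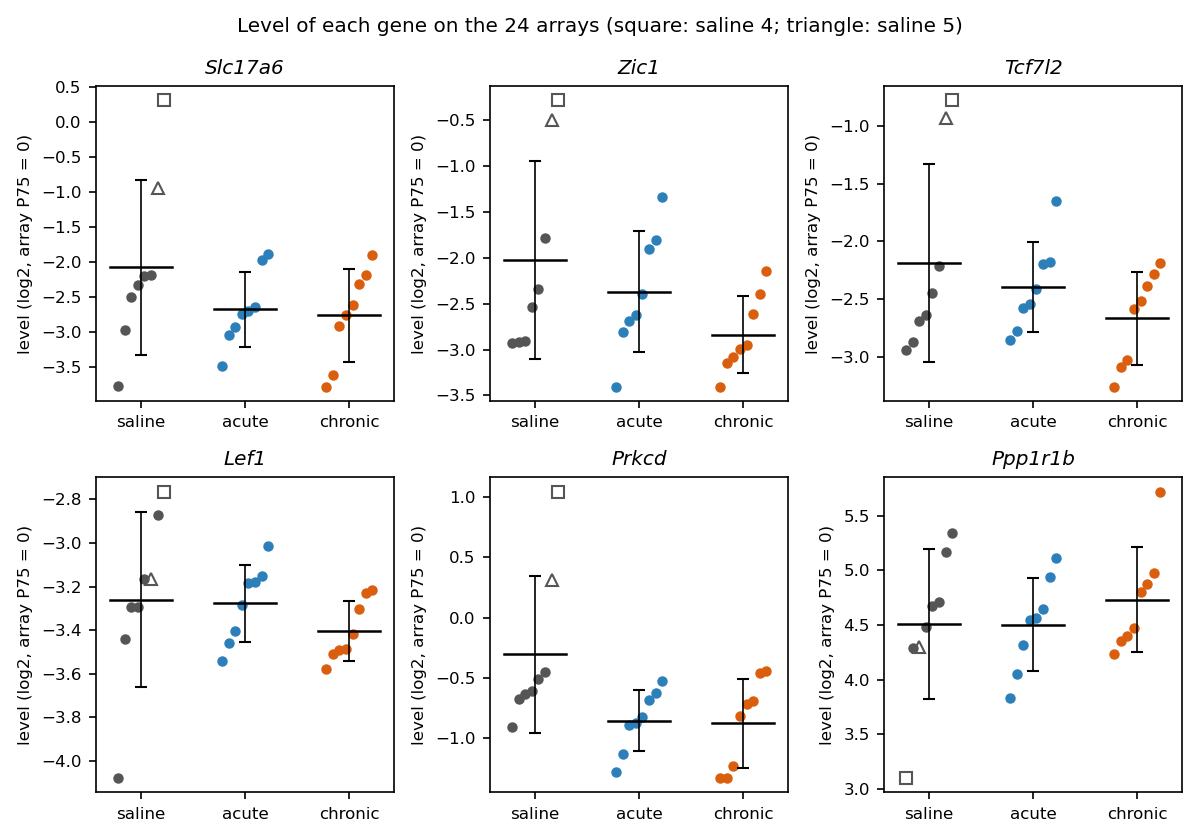
Level of each of the 5 genes and of Ppp1r1b on the 24 arrays by treatment group (vertical axis: log2 level with the 75th percentile of each array at 0; points: arrays; line and bar: mean and SD of 8 arrays). Saline replicate 4 (square) and saline replicate 5 (triangle) are the highest and second highest of 24 in Slc17a6, Zic1, Tcf7l2 and Prkcd, and replicate 4 is the lowest in Ppp1r1b.

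The same saline arrays, both on slide 2, held the top places in 4 of the 5 genes. Replicate 4 was highest and replicate 5 second of 24 in Slc17a6, Zic1, Tcf7l2 and Prkcd, and they were in places 1 and 5 in Lef1. Against the median of the other 22 arrays, Slc17a6 was 7.87-fold higher in replicate 4 and 3.30-fold higher in replicate 5. The folds were 5.18 and 4.48 for Zic1, 3.45 and 3.10 for Tcf7l2, 3.36 and 2.02 for Prkcd, and 1.45 and 1.1 for Lef1. The SD of the other 22 arrays was 0.58 on the log2 scale for Slc17a6, 0.54 for Zic1, 0.37 for Tcf7l2, 0.29 for Prkcd and 0.24 for Lef1. Saline replicate 2, which shares its title letter with replicate 5, held the lowest saline level of Slc17a6, at -3.78, and replicate 5 was 7.11-fold above it. For Zic1 replicate 5 was 5.32-fold above replicate 2, and for Tcf7l2 3.27-fold.

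These 2 arrays differed from each other in what else they held. Lists of cell type genes, described by the mean log2 level of their measured genes with the 5 genes left out, gave replicate 4 the highest level of 24 for thalamus neurons, hypothalamus, pallidum, habenula, oligodendrocytes, their precursors and astrocytes. The hypothalamus list was 2.83 above its median on the log2 scale there. Avp and Oxt, the hormone genes of the hypothalamus, reached 2.60 and 1.99 in replicate 4 against medians of -4.73 and -2.16. Ppp1r1b was lowest of 24 in replicate 4, at 3.10, or 2.85-fold below the median of the 22 arrays, and the list of striatal projection neurons was lowest too, 1.23 below its median. Drd1, Drd2, Penk, Tac1 and Adora2a, receptor and peptide genes of projection neurons, were each lowest of 24 in replicate 4, yet well above background there as on all arrays.

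Replicate 5 had a different profile. Its list level was highest of 24 for motile cilia of ependyma, 1.52 above the median, and second for choroid plexus, 4.12 above the median. Its thalamus list was in place 4 of 24 and only 0.18 above the median, and its striatal list was 14th, 0.02 below the median. Ppp1r1b, at 4.30, was 19th of 24, and Drd1, at 3.28, was in place 4. The cortex list was lowest of 24 in replicate 5 and 22nd in replicate 4. The thalamus list holds genes such as Calb2, which other neurons also express, and the part of any of these tissues in the high levels of the 5 genes was not tested.

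**Figure D2:**
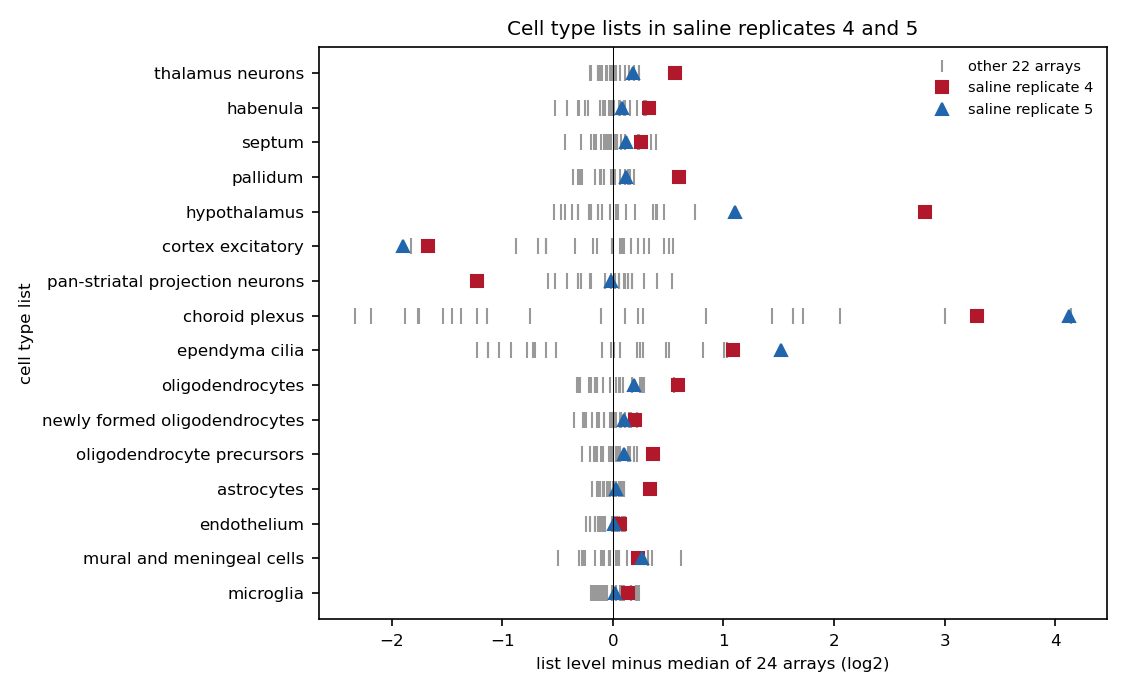
Level of 16 cell type lists on each array, as the list's mean log2 level minus its median over 24 arrays (horizontal axis; grey ticks: 22 arrays; square: saline replicate 4; triangle: saline replicate 5). Replicate 4 stands out in the hypothalamus list at 2.83 and the striatal list at -1.23, and replicate 5 in choroid plexus at 4.12 and ependyma at 1.52.

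Covariation over the 18 units was described by Pearson's r and by Spearman's rho. Each had a two-sided permutation test (100000 draws), adjusted by Benjamini-Hochberg over 15 relations, 10 pairs of the genes and 5 with Ppp1r1b. By Pearson's r, 9 of the 15 passed an adjusted p of 0.05, and by Spearman's rho 3 did. Without saline replicate 4, 1 of the 15 passed, that of Zic1 and Tcf7l2. Zic1 and Tcf7l2 moved together most closely, with r = 0.879 (permutation test, adjusted p = 0.00075) and rho = 0.779 (adjusted p = 0.00465). Without the 2 units farthest from the median of Zic1, r was 0.722. Over the 22 arrays, left after removing 2 picked for high levels of these genes, r was 0.681. Leaving out 2 arrays picked this way tends to lower r among these genes. Within slides 1, 2 and 3, over arrays, r was 0.818, 0.933 and 0.865. On slide 2 without saline replicates 4 and 5, and so over few arrays, it was 0.464.

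Slc17a6 passed with 3 of the other genes by Pearson's r. It correlated with Zic1 at r = 0.813 (permutation test, adjusted p = 0.0026), with Tcf7l2 at r = 0.719 (adjusted p = 0.035) and with Prkcd at r = 0.831 (adjusted p = 0.00952). Its rho was 0.573, 0.228 and 0.556 with the same genes, and none of these passed. Over the 22 arrays r fell to 0.32, 0.08 and -0.02 for Zic1, Tcf7l2 and Prkcd. Over units without saline replicates 4 and 5 it was 0.545 (permutation test, adjusted p = 0.0723), 0.028 and 0.121, so that none passed without these arrays. Within slides 1, 2 and 3, r of Slc17a6 and Zic1 was 0.614, 0.827 and 0.203, and slide 2 is the one that held both arrays. Without them it was -0.191 on slide 2. Within the acute group, 8 arrays that include neither, r of Slc17a6 was 0.774 with Zic1, 0.79 with Tcf7l2 and 0.58 with Prkcd. Within the chronic group it was -0.305, -0.50 and -0.227.

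Prkcd also passed with both Zic1 and Tcf7l2 by Pearson's r. Its r was 0.75 with Zic1 (permutation test, adjusted p = 0.00952) and 0.75 with Tcf7l2 (adjusted p = 0.0201). Without the 2 units farthest from the median of the first gene, these were 0.365 and -0.25, and over the 22 arrays 0.38 and 0.13. Over units without saline replicates 4 and 5 they were 0.149 and -0.25. On the slides that held neither of these arrays they were 0.427 and 0.519 (slide 1) and -0.05 and -0.29 (slide 3). Lef1 passed with no other gene. Its r was 0.407 with Slc17a6 (permutation test, adjusted p = 0.145), 0.169 with Zic1, 0.339 with Tcf7l2 and 0.385 with Prkcd. Over the 22 arrays these were -0.12, -0.23, -0.02 and -0.10. Without saline replicate 3, where Lef1 was not well above background, it passed with Slc17a6 (r = 0.569, permutation test, adjusted p = 0.0364), with Prkcd (0.555, adjusted p = 0.0373) and with Ppp1r1b (-0.525, adjusted p = 0.0458).

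**Figure D3:**
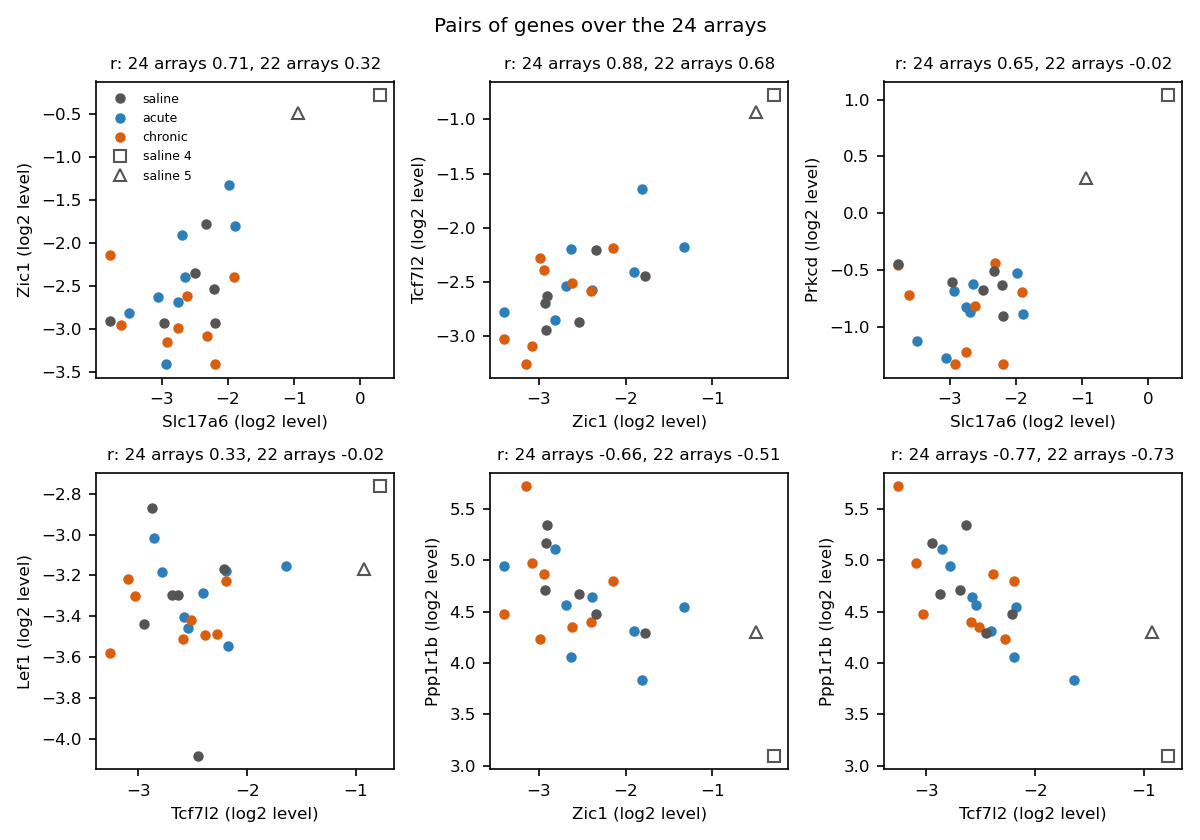
Levels of 6 pairs of genes on the 24 arrays (axes: log2 level, array 75th percentile at 0; colours: treatment groups; square and triangle: saline replicates 4 and 5). Zic1 and Tcf7l2 keep r = 0.68 over the 22 arrays and Tcf7l2 and Ppp1r1b r = -0.73, while r of Slc17a6 and Prkcd goes from 0.65 to -0.02.

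Ppp1r1b, the projection neuron gene, had its lowest, median and highest levels at 3.10, 4.58 and 5.34 on saline arrays. They were 3.83, 4.56 and 5.12 on acute and 4.24, 4.64 and 5.72 on chronic arrays, so the groups overlapped. With Ppp1r1b, 3 of the 5 genes passed by Pearson's r, each with a negative sign. Tcf7l2 had r = -0.807 (permutation test, adjusted p = 0.00682) and rho = -0.641 (adjusted p = 0.0243). Its r was -0.73 over the 22 arrays and -0.784, -0.761 and -0.841 within slides 1, 2 and 3. On slide 2 without saline replicates 4 and 5 it was -0.651. Without saline replicate 4 alone it was -0.445 and did not pass. Zic1 had r = -0.805 (permutation test, adjusted p = 0.0026) and rho = -0.730 (adjusted p = 0.0072). Its r was -0.51 over the 22 arrays and -0.714, -0.675 and -0.670 within slides. On slide 2 without saline replicates 4 and 5 it was only 0.03. Slc17a6 had r = -0.798 (permutation test, adjusted p = 0.0113), but rho = -0.439 did not pass, and r was -0.279 without the 2 farthest units. Over the 22 arrays its r was -0.51, and within slides -0.635, -0.818 and -0.513. On slide 2 it turned to 0.306 without saline replicates 4 and 5. Lef1 (r = -0.296) and Prkcd (r = -0.619, permutation test, adjusted p = 0.0666) did not pass, and rho of Prkcd with Ppp1r1b was 0.05. Over the 24 arrays 20.3% of all genes had a rho of at least 0.5 with Ppp1r1b and 12.4% one of -0.5 or below.

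The levels of 16 cell type lists were compared with each gene in the same way, with adjustment over 80 relations. By Pearson's r 14 of the 80 passed, and by Spearman's rho 3 did. The count by r was 4 without saline replicate 4, 7 without acute replicate 2 and 8 without the unit of saline replicates 2 and 5. It was 9 without the unit of chronic replicates 2 and 5, that of saline replicates 1 and 8, acute replicate 3 or acute replicate 7. Slc17a6 and the thalamus list gave the highest r, at 0.959 (permutation p = 1e-05, the smallest that the draws can give, adjusted p = 0.0008), with rho = 0.794 (adjusted p = 0.004). Here the relation held outside the 2 saline arrays: r was 0.878 over the 22 arrays, 0.861, 0.948 and 0.889 within slides, and 0.779 without the 2 farthest units. The 4 named genes of that list were chosen for their r with Slc17a6, so their rho with it adds no separate support. Over the 22 arrays it was 0.711 in Ntng1, a membrane-anchored netrin of thalamic axons, and 0.619 in Calb2, the calcium-binding protein calretinin. Ntng1 was well above background on 11 of 24 arrays. Gbx2, a homeobox gene of the developing thalamus, had a rho of 0.380 and Cbln4 of 0.213. Only 5 of the 22 genes of the list reached a rho of 0.5 over 24 arrays, against 3.37% of all genes. Over the 22 arrays 5 did as well, against 4.32% of all genes, and the median rho of the list's genes was 0.11.

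Slc17a6 also went with the hypothalamus list at r = 0.921 (permutation test, adjusted p = 0.0032), which was 0.552 over the 22 arrays. It moved against the list of striatal projection neurons at r = -0.824 (adjusted p = 0.0146), and r was -0.736 over the 22 arrays and -0.856, -0.767 and -0.663 within slides. In that list 17 of 24 genes had a rho of -0.5 or below with Slc17a6, against 2.70% of all genes. Penk, the enkephalin precursor, named for its r with Slc17a6, had a rho of -0.626 over the 22 arrays. Of the 10 septum genes with a value on every array, 3 had a rho of at least 0.5 with Slc17a6 over 24 arrays and 1 of -0.5 or below. The named ones were also chosen by r with Slc17a6. Over the 22 arrays they ran from -0.542 in Mme through 0.138 in Ngfr and 0.155 in Lhx2 to 0.683 in Trpc4, a cation channel of lateral septum neurons. The septum list did not pass over the 18 units (r = 0.555, permutation test, adjusted p = 0.0593). It passed with the 2 saline arrays left out (r = 0.70, permutation test, adjusted p = 0.0299). With the cortex list r was -0.447 over the units and 0.672 over the 22 arrays. The rho with this list was 0.24 over 24 arrays and 0.59 over the 22, where Slc17a7 had a rho of 0.51 with Slc17a6. Over the 22 arrays 7 of the 14 cortex genes had a rho of at least 0.5 with Slc17a6, with a median of 0.47. That is a larger share than in the thalamus list. Over 24 arrays 2 did and 2 had one of -0.5 or below.

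Zic1 passed with 4 lists, among them ependyma cilia and hypothalamus. Its r with the cilia list was 0.759 (permutation test, adjusted p = 0.0032) and its rho 0.816 (adjusted p = 0.004), and over the 22 arrays r was 0.758. Of the 9 cilia genes 8 had a rho of at least 0.5 with Zic1, against 9.08% of all genes. With the hypothalamus list r was 0.844 (permutation test, adjusted p = 0.0016) and rho 0.829 (adjusted p = 0.0008), and r was 0.747 over the 22 arrays. Only 4 of its 13 genes had a rho of at least 0.5 with Zic1 over 24 arrays. Over the 22 arrays 2 did, against 6.13% of all genes. The median rho of the list's genes was then 0.07, against -0.109 over all genes. The thalamus list passed with Zic1 over the units (r = 0.753, permutation test, adjusted p = 0.0315), but r was 0.31 over the 22 arrays. The list of striatal projection neurons passed with a negative sign (r = -0.719, permutation test, adjusted p = 0.0426), and r was -0.31 over the 22 arrays. The septum list, whose 1 other measured Zic gene was Zic2, had a rho of 0.23 with Zic1 over 24 arrays and 0.05 over the 22.

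Tcf7l2 passed with 5 lists. By Pearson's r these were hypothalamus (0.856, permutation test, adjusted p = 0.0146), cortex (-0.782, adjusted p = 0.0101), and, all at adjusted p = 0.0455, choroid plexus (0.564), ependyma cilia (0.574) and astrocytes (0.701). Over the 22 arrays they were 0.601, -0.293, 0.50, 0.52 and 0.191. Of the choroid plexus genes, 6 of 7 had a rho of at least 0.5 with Tcf7l2 over 24 arrays, where 14.1% of all genes did. Over the 22 arrays 1 of 7 did, where 12.5% of all genes did. With the list of newly formed oligodendrocytes its rho was 0.09, and with the thalamus list 0.23. Prkcd passed with the thalamus list (0.782) and the hypothalamus list (0.845, each permutation test, adjusted p = 0.0455), and over the 22 arrays these were 0.05 and 0.26. Lef1 passed with no list, and only 3.41% of all genes had a rho of at least 0.5 with it. For Prkcd that share was 0.729%.

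**Figure D4:**
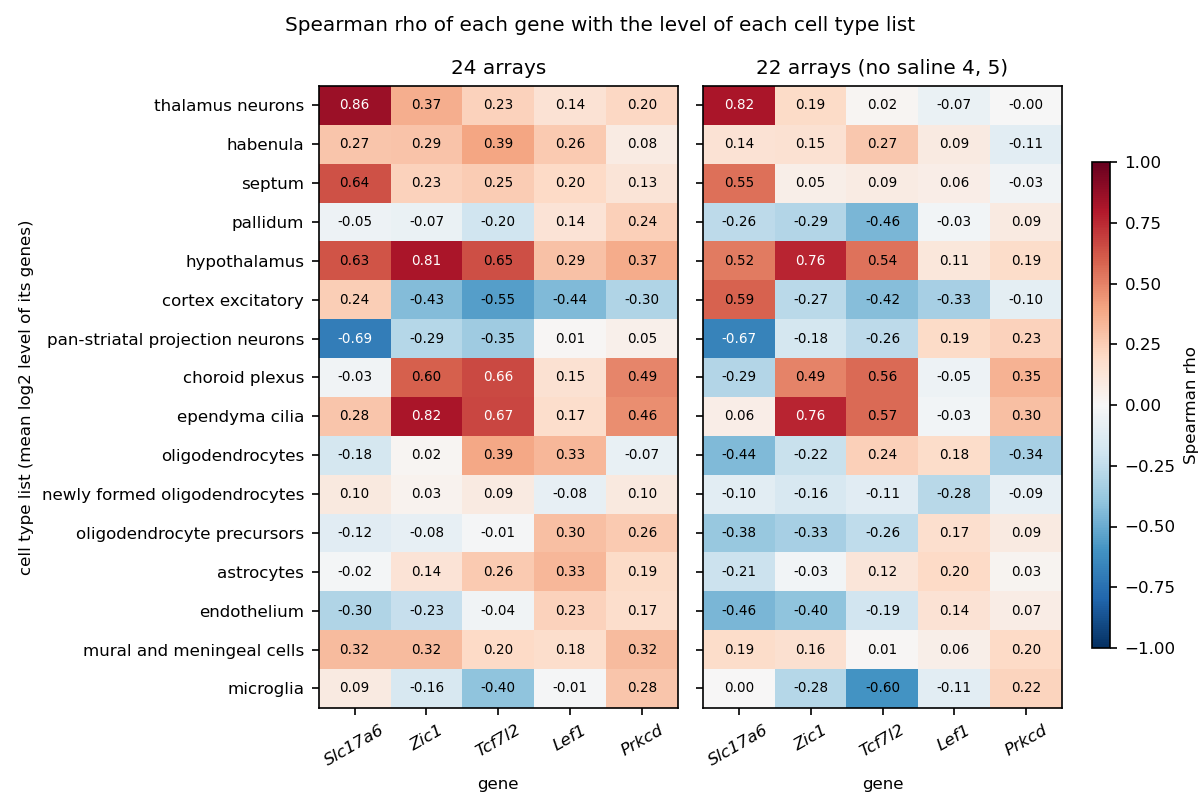
Spearman's rho of each of the 5 genes (columns) with the level of each of 16 cell type lists (rows), over 24 arrays on the left and over 22 arrays on the right (colour scale from -1 to 1, each cell with its value). Slc17a6 has 0.86 and 0.82 with thalamus neurons, Zic1 0.82 and 0.76 with ependyma cilia, and the columns of Lef1 and Prkcd hold no value of 0.5 or more on either side.

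The genes nearest to each of the 5 were ranked by Spearman's rho over 24 arrays, as a description. Unc5d, a netrin receptor of neurons, was nearest to Slc17a6 (rho 0.974, and 0.983 over the 22 arrays), followed by Tmem150c, Cd83, Pnck and Nrp2, a neuropilin, at 0.894 to 0.903. The lowest was Tnni3 at -0.857. Nearest to Zic1 were Nkain3 (0.879), Prelp, a matrix proteoglycan (0.877), Dnah11, a dynein heavy chain of motile cilia (0.874), Pierce1 (0.872) and C16h10orf53 (0.869), with Ddx19b lowest at -0.877. Ttc28 was nearest to Tcf7l2 (0.938), before Uap1l1, Tmem256, Gcsh and Trim47 at 0.910 to 0.916, and Syt5, a synaptotagmin, was lowest at -0.922. The nearest genes of Lef1, with Rhobtb3 first at 0.760, and of Prkcd, with Gchfr first at 0.776, were looser. Without the 2 saline arrays Rhobtb3 fell to 10th place for Lef1 and Gchfr to the third for Prkcd.

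Relatives of the 5 genes were described by their counts and medians. In the Wnt and TCF/LEF list 42 of 53 genes were measured, and 6 had a rho of at least 0.5 with Tcf7l2 and 8 of -0.5 or below, shares close to those over all genes (14.1% and 23.6%). For Lef1 these counts were 3 and 1, with a median rho of 0.09. Fzd1, a Wnt receptor, had a rho with Slc17a6 of 0.577 over 24 arrays, and Znrf3, a ligase that removes Wnt receptors, -0.572. Both were named for their r with Slc17a6. The other vesicular glutamate transporters, Slc17a7 and Slc17a8, had a rho of 0.21 and -0.16 with Slc17a6 over 24 arrays. Of the protein kinase C genes beside Prkcd, none of the 8 reached a rho of 0.5 or -0.5 with it. Of all genes only 0.729% and 0.676% did, so this count does not set the family apart. Prkcb, the beta form that is abundant in the striatum, opposed Slc17a6 at r = -0.904 over the 18 units, a value given as a description. It was named as the largest absolute r of the 8, and the others ran from -0.693 in Prkcz to 0.266 in Prkcq. The rho of Prkcb with Slc17a6 was -0.653 over 24 arrays and -0.549 over the 22 without saline replicates 4 and 5.

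The other probes of the genes were set beside the used ones over 24 arrays. For Zic1 the second probe had r = 0.70 with the first, and 0.34 over the 22 arrays. For Prkcd r was 0.68 and 0.44. Saline replicates 4 and 5 were first and second of 24 on both second probes, as on the used ones. For Lef1 the second probe had r = 0.35, and replicates 4 and 5 were in places 5 and 6 on it. The upstream Tcf7l2 probes had r = 0.06 and -0.06, which says nothing of the gene since neither gave a signal above background.

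No comparison of the treatment groups reached the threshold for any of the 5 genes. With limma (3 groups in 1 fit, Benjamini-Hochberg adjustment over 20962 genes, adjusted p under 0.05), 0 of the 5 were called in acute against saline, chronic against saline, chronic against acute or the F test over the groups. Over all genes the share called was 0% in each. At an unadjusted p under 0.05 there were 337, 603 and 522 genes in the 3 comparisons and 360 by the F test. The 2 MDPV comparisons with saline share their saline arrays and are given side by side.

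Slc17a6 was lower than saline by point estimate in both drug groups: the log2 difference was -0.66 (SE 0.41) for acute and -0.73 (SE 0.41) for chronic, each over 6 units a group. Zic1 differed by -0.42 (SE 0.37) and -0.84 (SE 0.37; limma, unadjusted p = 0.0379, adjusted p = 1.00). Tcf7l2 differed by -0.23 and -0.45 (SE 0.28 each) and Lef1 by -0.05 and -0.14 (SE 0.17 each). Prkcd differed by -0.53 (SE 0.24; limma, unadjusted p = 0.0422, adjusted p = 1.00) and -0.55 (SE 0.24; unadjusted p = 0.0368, adjusted p = 1.00). In chronic against acute the differences were -0.06 for Slc17a6, -0.42 for Zic1, -0.22 for Tcf7l2, -0.09 for Lef1 and -0.02 for Prkcd, with the same SEs.

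The negative estimates were smaller or turned positive without saline replicates 4 and 5, which were picked as the highest in 4 of the 5 genes. For those genes, leaving out the top saline levels must raise drug minus saline, so the direction of this shift was built in. With these left out, an alternative chosen after seeing the data, acute minus saline was 0.08 for Slc17a6, 0.16 for Zic1, 0.23 for Tcf7l2, 0.07 for Lef1 and -0.19 for Prkcd. Chronic minus saline was then 0.01, -0.26, 0.01, -0.02 and -0.21 in the same order. Over units the sign turned for 4 of 5 genes in the first comparison and for 2 of 5 in the second. There, saline replicate 2, with the lowest saline level of Slc17a6, was left alone for its title letter. Over 22 single arrays the sign turned only for Zic1, Tcf7l2 and Lef1, in the first comparison, and not for Slc17a6. The 95% intervals without these arrays still ran from -0.56 to 0.72 for Slc17a6 and from -0.06 to 0.53 for Tcf7l2 in acute minus saline, so a change of that size was not shown to be present or absent. Each slide held 2 to 4 acute, 2 or 3 chronic and 2 or 3 saline arrays, so differences within a slide rest on few arrays. Within slide 2, which held both arrays, acute minus saline was -1.72 for Slc17a6 and -1.05 for Zic1. On slides 1 and 3 it was 0.13 and -0.08 for Slc17a6 and 0.27 and 0.29 for Zic1. In chronic minus saline both signs occurred on the other slides. For Slc17a6 it was 0.26 on slide 1 and -1.12 on slide 3, and for Zic1 -0.61 and 0.38. Acute minus saline of Prkcd was negative on each slide, at -0.28, -0.99 and -0.16. Its chronic minus saline was -0.32, -1.32 and 0.17.

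**Figure D5:**
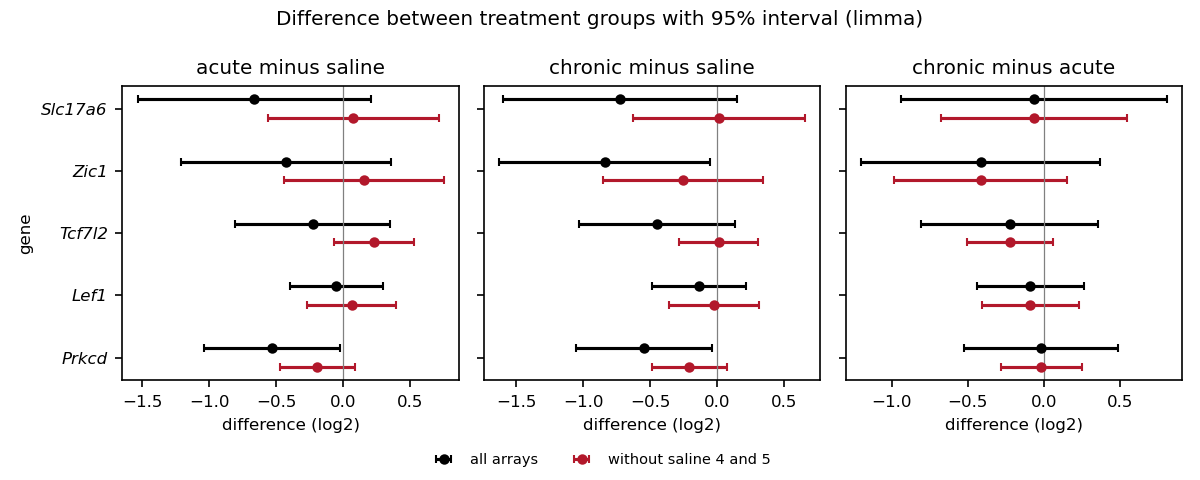
Log2 difference of each gene between treatment groups (limma estimate with 95% interval, horizontal axis), with all arrays in black and without saline replicates 4 and 5 in red. With all arrays Prkcd lies at -0.53 and -0.55 against saline and Slc17a6 at -0.66 and -0.73. Without the 2 arrays Slc17a6 lies at 0.08 and 0.01 over units, a turn of sign not seen over 22 single arrays.

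Some of the lists that moved with or against the genes leaned in 1 direction between the groups, and none of their genes was called. In chronic minus saline all 7 choroid plexus genes and all 9 ependyma cilia genes had negative estimates, with medians of -1.71 and -0.75, as had 11 of 13 hypothalamus genes, with a median of -0.72. In acute minus saline these medians were -1.08, -0.55 and -0.40, and all 24 striatal genes had positive estimates, with a median of 0.24. The median over all genes was -0.0022 in acute and 0.02 in chronic minus saline, and 50.9% and 43.5% of all genes had negative estimates. The thalamus list had medians of -0.04 in acute and -0.05 in chronic minus saline, with 12 and 13 of 22 estimates negative. Of the 14 cortex genes 11 had positive estimates in acute and 13 in chronic minus saline. Without saline replicates 4 and 5 these counts were 2 and 6. Without saline replicates 4 and 5 the choroid plexus medians were -0.469 in acute and -0.777 in chronic minus saline, with all 7 genes still negative. The ependyma cilia medians were -0.084 and -0.279. Of all genes, 53.3% in acute and 45.2% in chronic minus saline had negative estimates in this setting. The striatal list then had 14 of 24 estimates negative in acute, near that share, and 22 of 24 in chronic minus saline. Genes of a list can vary together, so such counts are not counts of separate observations. The hypothalamus median turned to 0.15 in acute and was -0.08 in chronic minus saline. The part of these tissues in the differences of the 5 genes was not tested. As for array quality, 50.7% to 71.3% of an array's 58717 spots passed the scanner's test against background, and none was saturated, and the share above background correlated with the 5 genes at r between -0.05 and 0.38 over 24 arrays.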

How the data were processed

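Total RNA of 24 striatal samples was measured on 1-colour Agilent arrays, 8 per group. Per the file headers, each spot's processed signal is an intensity that the authors' scanner software had background-corrected (Agilent Feature Extraction 10.7, per the submitters' processing notes). The authors' deposited table of log2 values orders the probes of an array as the processed signal does. Its normalization is not given in the sources used here. Flag columns of the deposited files, listed as other values, gave spots above background, saturated or uneven.

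Values were log2 processed signals minus each array's 75th percentile over non-control spots. Spots marked as outliers were left out, and spots of 1 probe were averaged. Kept were 26259 probes well above background on a share of at least 0.5 of the arrays of 1 group. Probes took the RefSeq symbol of their accession (14748 kept probes matched) or else the file's name, and the probe with the highest mean stood for a gene. The scanner files' symbols found the probes of the 5 genes. Differences came from limma 3.58.1 in R 4.3.3, relations from numpy 2.4.6 and scipy 1.17.1. Both steps were tested on simulated data.

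The genes named were drawn from the 5 and Ppp1r1b, for each its 5 highest and 3 lowest neighbours by rho, at most 4 genes of a list by r with Slc17a6 and all of a family, and Ttr, Slc17a7, Avp and Oxt. Not all of these are given a value in the text: Ttr and some protein kinase C genes are not. Drd1, Drd2, Tac1 and Adora2a were added after their values were seen. The genes, lists and tests were chosen with earlier results of these data known. Some list genes, such as Emx2, Lamp5 and Tle4 of the cortex list, are also expressed in the striatum. Lhx8 stands in 2 lists. Alternatives were quantile normalization, normexp with an offset of 50, the authors' table, other filters, arrays as samples, blocks for slide, title letter and title series, other probes and each unit left out. Leaving out saline replicates 4 and 5 was added after seeing the data, because they were the highest in 4 of the 5 genes. Values without them describe the other arrays and are no separate test. The number of arrays limits the precision.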

Additional observations from a re-analysis of the deposited data

Results flagged for a closer look

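Among the 5 genes and Ppp1r1b in 3 groups of 8 arrays, 1 array stood far from the rest of its group. It was saline replicate 4 in Ppp1r1b, at a level of 3.10 on the log2 scale. Its gap to the next lowest saline array was 0.533 of the group's range, against Dixon's critical value of 0.526. Chance passes that limit in about 1 of 20 groups. Every gene was tested in every group, so 1 such gap is about as many as chance would give. The same array was highest of 24 in the 5 genes, but saline replicate 5 lay beside it in 4 of them, and no gap there passed the limit (0.377 in Prkcd and 0.307 in Slc17a6).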

How the results depend on the processing

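The count of the 5 genes called by limma was 0 in each comparison and in the F test under every alternative run, with no setting that called any. Among the 15 relations, 9 passed, against 3 by Spearman's rho, 3 without saline replicates 4 and 5, 2 over 22 single arrays, and between 1 (without saline replicate 4) and 12 with 1 unit left out. Among the 80 relations with lists, 14 passed, against 3 by rho, 28 with normexp, 26 with 24 arrays as samples, 24 with slide means removed, 6 without saline replicates 4 and 5, 7 over 22 single arrays, and 4 to 17 with 1 unit left out. The cause was not tested.

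Signs turned in the following. Without saline replicates 4 and 5, acute minus saline was 0.078 in Slc17a6, 0.157 in Zic1 (0.197 over 22 single arrays), 0.232 in Tcf7l2 (0.236) and 0.066 in Lef1 (0.080), and chronic minus saline 0.014 in Slc17a6 and 0.0098 in Tcf7l2. Over 22 single arrays the signs of Slc17a6, and that of Tcf7l2 in chronic minus saline, did not turn. With the letter as a random block acute minus saline of Lef1 was 0.0023. Chronic minus acute was 0.182 in Lef1 by its other probe and 0.00098 in Prkcd with normexp. With 1 unit left out, acute minus saline ran from -0.373 to 0.062 in Tcf7l2 and from -0.210 to 0.053 in Lef1, and chronic minus acute from -0.225 to 0.116 in Slc17a6 and from -0.090 to 0.078 in Prkcd. None of these differences was called in either setting.

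Relations that turned sign without saline replicates 4 and 5, over units and then over 22 arrays, were Slc17a6 with Lef1 (-0.082, -0.118), Zic1 with Lef1 (-0.386, -0.228), Tcf7l2 with Lef1 (-0.247, -0.0246), Lef1 with Prkcd (-0.149, -0.103), Lef1 with Ppp1r1b (0.193, 0.0315) and Prkcd with Ppp1r1b (0.287, 0.118). Tcf7l2 with Prkcd was -0.252 over units, and Slc17a6 with Prkcd -0.0241 over arrays. By rho, Tcf7l2 with Lef1 was -0.0052, Lef1 with Ppp1r1b 0.0010 and Prkcd with Ppp1r1b 0.051. With 1 unit left out, r of Lef1 ran from -0.0303 to 0.569 with Slc17a6, -0.294 to 0.407 with Zic1, -0.109 to 0.473 with Tcf7l2, -0.063 to 0.555 with Prkcd and -0.525 to 0.200 with Ppp1r1b, and that of Prkcd with Ppp1r1b from -0.702 to 0.206.

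The ranges of Slc17a6, Zic1, Tcf7l2 and Prkcd moved by less than 1 SD under quantile normalization, normexp and the authors' values. That of Lef1 went from 1.32 to 0.87 with normexp. Signal over background limits Lef1 and the second probes. No paired analysis was possible because replicate numbers name arrays and pair none.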
